A study of Mus musculus with 15 samples.

Results

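Rivaroxaban-treated mouse hearts were compared with sham hearts across all expressed genes, to describe how close the transcriptomes of these groups were and which processes leaned either way. The comparison used 5 of the 11 libraries in the deposited table: rivaroxaban replicates Riva-313 and Riva-319, against sham replicates Sham_003, Sham_006 and Sham_007. It covered the 13541 of 16658 listed genes whose log2 CPM (the share of a library's reads that fell on the gene, rescaled and logged) was at least 0 in at least 3 of the 11 libraries. Values of a gene are given in that order of replicates throughout.

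All animals were male wild-type C57BL/6 mice of 8 to 10 weeks, and the tissue was heart that included the infarcted area and its surroundings. Per the labels, rivaroxaban, named there as a factor Xa inhibitor, was given at 3 mg/kg for 7 days before surgery and again from 2 h after it. The surgery, a ligation of the left anterior descending artery for 90 min with 24 h of reperfusion, is described once for the whole study, and neither the sham operation nor any vehicle is described. The other groups of the table, used only for the shared spread and for a few comparisons, were 2 libraries each labelled untreated, dabigatran at 10 mg/kg and activated protein C (aPC) at 1 mg/kg. The labels name 3 samples a group, and the 4 that the table lacks, 1 of them a rivaroxaban sample, were not analysed here. Nothing in the labels says that the replicates of a group were housed or operated on separately, so the p-values measure the spread between these libraries.

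Factor Xa converts prothrombin to thrombin, which forms fibrin and cleaves protease-activated receptors on platelets, endothelium and other cells. After a blocked coronary artery is reopened, injured muscle and endothelium typically display adhesion molecules and release chemokines, neutrophils and then monocytes enter, and resident macrophages are lost. Working heart muscle draws most of its energy from fatty acids, and injury or stress commonly shifts it towards fetal genes and glucose use.

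No gene passed the test in rivaroxaban against sham hearts. The two-sided limma-trend fit called 0 of 13541 genes (0%) at a Benjamini-Hochberg adjusted p under 0.05, with a smallest adjusted p of 0.237, and 0 genes also at 0.1. At an unadjusted p under 0.05 stood 761 genes (5.62%), 380 higher (2.81%) and 381 lower (2.81%) with rivaroxaban. That count was 323 without Riva-313, 406 without Riva-319 and 463 without Sham_006, 1381 and 1380 without either untreated library, and 2156 and 2467 with the group and library weights described next. With limma weights, which give less weight to libraries that vary more, the same contrast called 92 genes (0.679%) when each group had a weight and 198 genes (1.46%) when each library had one, 89 of them (0.657%) in both. The untreated pair then weighed 0.249 or 0.242, against 2.19 or 2.13 for each rivaroxaban library and 1.47 for each sham library by group, or 3.15, 1.39 and 0.917 for the sham libraries singly. A fit of the rivaroxaban and sham libraries alone called 0 genes, with a smallest adjusted p of 0.0556. It had 1903 of 13541 genes at an unadjusted p under 0.05.

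Beyond the lack of calls, most genes could be placed within 2-fold of no difference. A test of equivalence, which asks whether a change of 2-fold or more in either direction lies outside the error, placed 11236 genes (83%) within 2-fold at an adjusted p under 0.05. With a margin of 1.5-fold the number was 5206 of 13541, so most genes were not shown to lie within 1.5-fold. Both rivaroxaban libraries lay above all sham libraries in 2160 genes (16%) and below all of them in 2225 (16.4%). The median log2 fold change over all genes was -0.01, the middle 90% lay between -0.44 and 0.49, and the median 95% interval reached 0.47 to either side. Past a log2 difference of 1 in size stood 166 genes (1.23%), against 1513 (11.2%) in untreated against sham, 1330 (9.82%) in dabigatran against sham and 459 (3.39%) in aPC against sham. These contrasts share the sham libraries. The order by called genes depended on the weights. With group or library weights, untreated against sham had fewer calls than rivaroxaban against sham (92 and 198). By the adjusted p, the unweighted fit called 10.6% of genes in untreated, 18.5% in dabigatran and 1.17% in aPC against sham. It called 23.3% in rivaroxaban against dabigatran and 1.54% in rivaroxaban against aPC. Those shares moved widely when 1 library was left out, the first to between 261 and 5197 genes, the second to between 374 and 4260, the third to between 1 and 779, the fourth to between 919 and 4840 and the last to between 1 and 1202.

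**Figure D1:**
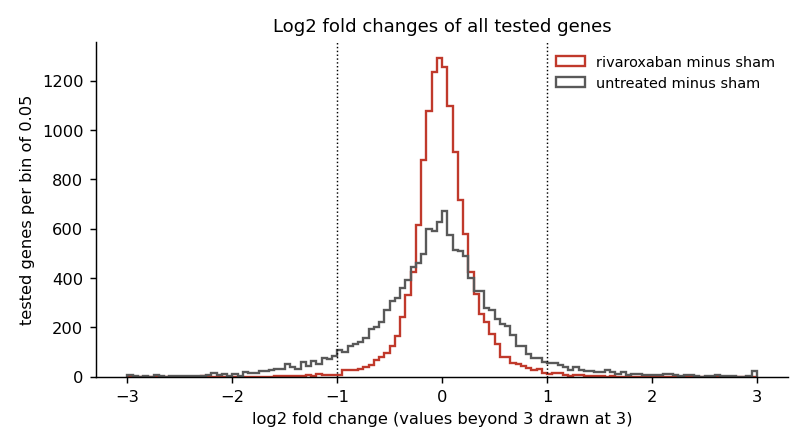
Number of tested genes by log2 fold change in bins of 0.05, for rivaroxaban minus sham and for untreated minus sham, with dotted lines at a 2-fold change. The rivaroxaban curve is the narrower one, with an SD of 0.305, against 0.662 for untreated minus sham, and 166 and 1513 genes lie past the dotted lines.

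Pairs of libraries gave the same picture. The SD over genes of the log2 difference of 2 libraries was 0.336 to 0.433 in the 6 pairs of rivaroxaban with sham (median 0.397). It was 0.313 in the rivaroxaban pair and 0.313 to 0.367 in the 3 sham pairs. Only Riva-319 with Sham_003 (0.336) fell within the range of the sham pairs, and the other pairs between the groups began at 0.395. The median between the groups was 1.18 times the median within them, or 1.46 times when distance was taken as 1 minus the Spearman correlation. Rivaroxaban libraries stood further from aPC libraries (0.530 to 0.601), untreated libraries (0.626 to 0.980) and dabigatran libraries (0.684 to 1.02), and these ranges do not overlap with that of rivaroxaban and sham pairs. The libraries of all 5 animals held 27072182 to 32771278 reads on listed genes.

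**Figure D2:**
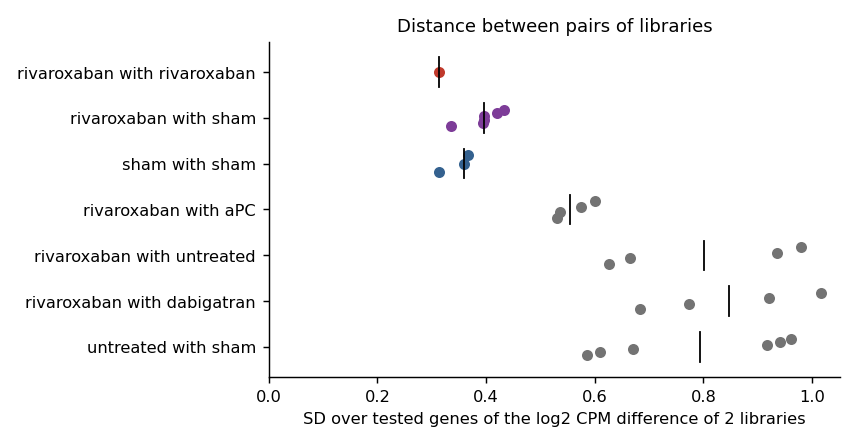
Distance between pairs of libraries, as the SD over tested genes of their log2 CPM difference, with 1 point a pair and a bar at the median of each kind of pair. Of the 6 rivaroxaban with sham pairs (0.336 to 0.433), only Riva-319 with Sham_003 (0.336) lies within the range of the sham pairs (0.313 to 0.367). The others, from 0.395 up, lie above every pair within either group. All 6 lie below the lowest pair of a rivaroxaban library with one of another drug or of untreated hearts (0.530).

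The tissue matched its label. Cardiomyocyte markers summed to 60248 and 66196 CPM at the lowest and highest rivaroxaban library, and to 61478 and 82947 CPM in sham, and all 9 tested markers were shown to lie within 2-fold (83% of all genes were). Tnnt2, cardiac troponin T, stood at 13.34 and 13.15 in rivaroxaban hearts and at 13.06, 13.41 and 13.22 in sham hearts. Endothelial markers (12 of 13 within 2-fold), fibroblast markers (10 of 12) and smooth muscle and pericyte markers (11 of 12) had medians of -0.03, -0.12 and 0.05. Within that margin, 8 of the 9 cardiomyocyte markers lay below 0, with a median of -0.14. Of the 13 endothelial markers, 6 were lower with their groups apart (16.4% of all genes) and 1 higher and apart (16%). In bulk tissue, fewer cells of a type and less RNA per cell cannot be told apart.

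The coagulation list, which holds the pathway that rivaroxaban blocks, had 0 of 23 tested genes called. It had 6 members above (48.9% of all genes were) and 17 below (51.1%) a difference of 0, a median of -0.17, and 14 within 2-fold (83% of all genes). The median was -0.08 without Riva-313, -0.09 without Sham_003 and -0.10 without Sham_006. At an unadjusted p under 0.05 stood 2 higher (of all genes 2.81%) and 1 lower members. Tfpi, the tissue factor pathway inhibitor that binds factor Xa, stood at 6.54 and 6.34 in rivaroxaban hearts and at 5.71, 5.96 and 6.08 in sham hearts. The groups did not overlap, with a log2 fold change of 0.52 ± 0.17 (limma standard error, as after every ± below; adjusted p = 0.730, or 0.0418 with library weights and 0.0816 with group weights).

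The gene of factor X itself, F10, was low in the heart, at -0.37 and 1.31 with rivaroxaban and at 1.91, 1.72 and 1.60 in sham (-1.27 ± 0.55). F5, the cofactor of factor Xa, stood near the detection limit, at -1.25 and -0.25 in rivaroxaban hearts and at -2.70, -2.43 and -1.71 in sham hearts (1.53 ± 0.63), where 3 reads equal -2.72 to -2.54. Both genes had their groups apart, in opposite directions, and neither passed. Tissue factor F3 (-0.20 ± 0.23), the thrombin receptor F2r (-0.17 ± 0.18), the endothelial protein C receptor Procr (0.37 ± 0.36), thrombomodulin Thbd (-0.33 ± 0.30) and the plasminogen activator Plat (-0.25 ± 0.20) lay within 2 standard errors of 0. Plaur, the urokinase receptor, stood at 2.03 and 2.54 in rivaroxaban hearts and at 2.56, 2.68 and 3.25 in sham hearts (-0.55 ± 0.34).

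Of the 14 tested genes for chemokines and interleukin 6, 12 lay below and 2 above 0, with a median of -0.65, against -0.01 for all genes. The libraries of 9 members were apart and lower with rivaroxaban, as they were for 16.4% of all genes, and 5 stood at an unadjusted p under 0.05 in that direction, against 2.81%. Ccl7, which draws monocytes, lies on chromosome 11 (82045712 to 82047525, mm10). It stood at 1.90 and 2.79 in rivaroxaban hearts and at 3.68, 3.95 and 3.56 in sham hearts. Both rivaroxaban libraries lay below every sham library (-1.39 ± 0.26, adjusted p = 0.397, or 0.0311 with group weights and 0.0222 with library weights).

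The neutrophil-attracting chemokines Cxcl1, Cxcl2 and Cxcl3 lie together on chromosome 5 and leaned the same way. Cxcl2 stood at -0.51 and 0.21 in rivaroxaban hearts and at 1.23, 0.99 and 2.07 in sham hearts (-1.58 ± 0.45, adjusted p = 0.649). Cxcl3 stood at -1.67 and -0.02 in rivaroxaban hearts and at 0.35, 0.27 and 1.33 in sham hearts (-1.499 ± 0.608). Cxcl1 stood at 1.29 and 1.67 in rivaroxaban hearts and at 2.45, 1.99 and 2.61 in sham hearts (-0.87 ± 0.50). In all 3 genes the groups did not overlap. Cxcl2 and Cxcl3 kept an adjusted p over 0.05 with either kind of weight (0.0652 the lowest for Cxcl2 over the alternatives).

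The promoters of these 3 genes are shown because they share a site form of nuclear factor kappa B, the factor that drives many inflammatory genes. The windows are the 150 bases before the RefSeq start sites on the plus strand of GRCm38.p6 (the assembly that mm10 names), at chr5:90891095-90891244 for Cxcl1, chr5:90903749-90903898 for Cxcl2 and chr5:90785951-90786100 for Cxcl3. Capitals mark matches, on either strand, to the form GGG, then any 2 bases, then TTTCC.
Cxcl1: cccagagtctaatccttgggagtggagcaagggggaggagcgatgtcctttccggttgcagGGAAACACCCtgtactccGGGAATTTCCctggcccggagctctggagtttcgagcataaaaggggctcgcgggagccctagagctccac
Cxcl2: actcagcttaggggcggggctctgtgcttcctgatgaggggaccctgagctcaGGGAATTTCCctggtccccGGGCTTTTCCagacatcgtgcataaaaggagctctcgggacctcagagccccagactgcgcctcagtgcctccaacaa
Cxcl3: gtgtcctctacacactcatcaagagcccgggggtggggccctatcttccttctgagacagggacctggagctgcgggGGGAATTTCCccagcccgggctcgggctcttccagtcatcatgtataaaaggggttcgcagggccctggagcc
Cxcl1 and Cxcl2 each hold 2 matches and Cxcl3 holds 1. The form was found within 250 bases before the start in 5 of the 11 listed chemokine and interleukin 6 genes with a promoter in the table (45.5%), in 4 of 14 nuclear factor kappa B targets (28.6%) and in 176 of 10392 tested genes (1.69%). The target list was made of genes of this factor, so its share was set in advance. The chemokine list holds inflammatory genes, many of which the factor drives. These shares therefore say nothing about rivaroxaban against sham. Nfkbia was among the 4 targets with the form, and Sele, Il1b, Tnfaip2 and Bcl3, named below, were not. A match describes these letters and does not show binding.

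Of the other members, Cxcl12 and Cxcl5 also had both rivaroxaban libraries below every sham library, while Ccl8 and Il6 overlapped. Cxcl12, which endothelial and stromal cells make, stood at 7.75 and 7.87 in rivaroxaban hearts and at 8.01, 8.10 and 8.36 in sham hearts (-0.34 ± 0.14). Cxcl5, another attractant of neutrophils, stood at 2.20 and 3.44 with rivaroxaban and at 3.96, 3.77 and 4.31 in sham (-1.19 ± 0.62). Ccl8, at 0.43 and 1.74 with rivaroxaban and at 0.42, 0.44 and -0.01 in sham (0.80 ± 0.49), leaned the other way and overlapped. Il6 stood at -1.67 and -0.02 in rivaroxaban hearts and at -0.26, -0.58 and 1.02 in sham hearts, again with overlap (-0.91 ± 0.69). Without Riva-313 the list median was -0.24, and without Riva-319 it was -0.91.

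The nuclear factor kappa B targets had 16 of 18 members below 0 (51.1% of all genes were), a median of -0.34 (-0.55 without Riva-319), 11 lower with their groups apart (16.4% of all genes), and 0 called. Sele, the endothelial selectin that slows passing leukocytes, stood at 0.13 and 0.84 in rivaroxaban hearts and at 1.73, 1.63 and 1.88 in sham hearts. Its log2 fold change was -1.26 ± 0.29 (adjusted p = 0.475, or 0.0382 with group weights). Il1b, interleukin 1 beta, stood at 0.73 and 1.496 in rivaroxaban hearts and at 1.88, 2.26 and 3.14 in sham hearts (-1.31 ± 0.41). Tnfaip2 (-0.69 ± 0.21) and the co-regulator Bcl3 (-0.78 ± 0.24) also had rivaroxaban below every sham library. Nfkbia, the inhibitor that the factor itself induces, was on the other side, at 5.78 and 6.18 with rivaroxaban and at 5.66, 5.40 and 5.52 in sham (0.46 ± 0.21).

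Leukocyte markers were split by cell type and by library. Resident macrophage markers had 13 of 15 members below 0, a median of -0.45, 10 lower with groups apart (16.4% of all genes), 8 lower at an unadjusted p under 0.05 (2.81%) and 9 within 2-fold (83%). Both rivaroxaban libraries shared that lean, with list medians of -0.42 in Riva-313 and -0.56 in Riva-319 relative to the sham mean of each gene, against -0.09 to 0.16 in the sham libraries. Cbr2, a carbonyl reductase marking these cells in the mouse heart, stood at 4.58 and 4.32 in rivaroxaban hearts and at 5.25, 5.01 and 5.003 in sham hearts (-0.64 ± 0.17, adjusted p = 0.588, or 0.0291 with library weights and 0.0542 with group weights). The complement genes C1qb (-0.44 ± 0.15) and C1qc (-0.42 ± 0.14), the receptor Csf1r (-0.45 ± 0.17) and Lyve1 (-0.69 ± 0.27) lay on the same side. The summed level of the list was 475 to 573 CPM with rivaroxaban and 653 to 766 CPM in sham. The lean was not particular to rivaroxaban, as against the same sham libraries the list median was -0.85 in untreated hearts. It was -0.11 in dabigatran and 0.23 in aPC hearts. In rivaroxaban against untreated hearts the list median was 0.435.

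Csf1, the ligand of Csf1r that keeps macrophages alive, stood at 5.88 and 6.04 in rivaroxaban hearts and at 6.96, 6.92 and 6.43 in sham hearts. That made a log2 fold change of -0.81 ± 0.17 (adjusted p = 0.403, or 0.0311 with group weights and 0.0116 with library weights). The ligand and its receptor thus each had both rivaroxaban libraries below all sham libraries.

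Neutrophil markers (10 of 11 below 0, median -0.46) and monocyte markers (12 of 15 below 0, median -0.37) did not lean evenly. The neutrophil list stood at -0.80 in Riva-313 and at 0.24 in Riva-319, against -0.26, -0.20 and 0.46 in the sham libraries. The monocyte list stood at -0.81 and 0.24, against 0.20, 0.12 and -0.38. Either median therefore had the opposite sign without Riva-313, and without Riva-319 they were -0.80 and -0.81. Without Sham_007 they were -0.23 for neutrophil and -0.64 for monocyte markers. S100a8, a calprotectin gene abundant in neutrophils, stood at 1.37 and 2.57 in rivaroxaban hearts and at 2.29, 2.35 and 3.01 in sham hearts (-0.58 ± 0.50). Mmp8, neutrophil collagenase, was at 0 reads in Riva-313 and at -0.20 in Riva-319, against -0.97, -1.13 and 0.04 in sham.

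The summed level of the neutrophil list ran the other way, at 233 to 270 CPM with rivaroxaban and 158 to 189 CPM in sham. Lcn2, lipocalin 2, made up most of it, at 7.97 and 7.57 in rivaroxaban hearts and at 7.29, 6.93 and 6.72 in sham hearts (0.79 ± 0.52), and it is also made by muscle and other cells. Of the 15 monocyte markers, Vcan, Clec4e, Cd14 and Msr1 were lower with groups apart, against 16.4% of all genes. Vcan, the matrix proteoglycan versican (chromosome 13, 89655312 to 89742509), stood at 4.45 and 4.80 in rivaroxaban hearts and at 5.47, 5.43 and 5.76 in sham hearts (-0.93 ± 0.15, adjusted p = 0.243, or 0.0128 with group weights). Cd14 stood at 2.51 and 2.77 in rivaroxaban hearts and at 3.41, 3.35 and 3.55 in sham hearts (-0.79 ± 0.27).

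**Figure D3:**
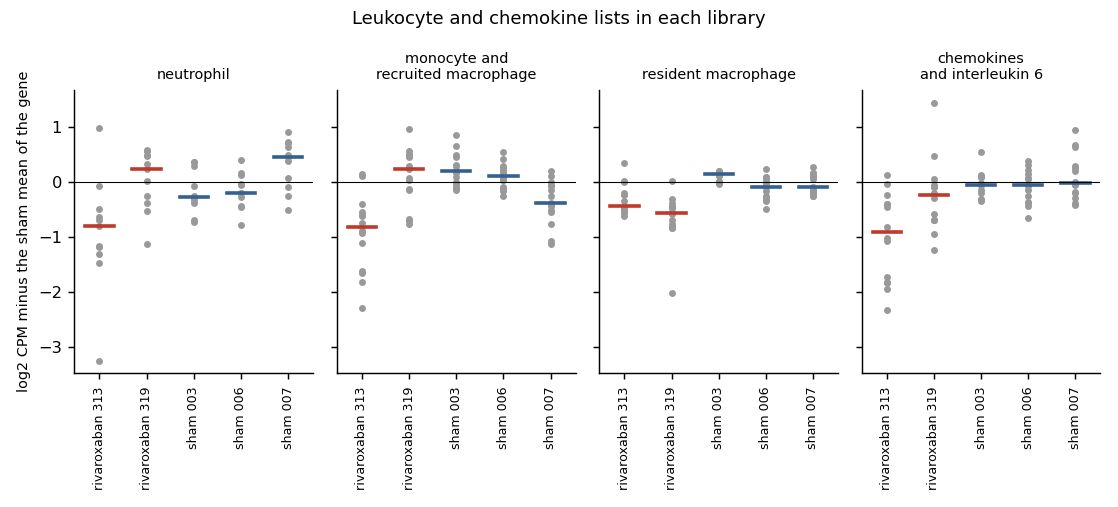
Members of 4 lists in each library, as log2 CPM minus the gene's mean over the sham libraries, with 1 point a gene and a bar at the median. Resident macrophage markers lie low in both rivaroxaban libraries (-0.42 and -0.56), while the neutrophil (-0.80 and 0.24) and monocyte (-0.81 and 0.24) medians differ between Riva-313 and Riva-319.

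Heat shock and cardiac stress genes lay mostly below sham, while other stress lists did not. Integrated stress response genes had 6 members above and 8 below 0, and a median of -0.14. Their summed level was 830 to 955 CPM with rivaroxaban and 671 to 797 CPM in sham. Endoplasmic reticulum stress genes had 10 of 16 members above 0 (median 0.05), and oxidative stress genes 6 above and 7 below (median -0.07). Heat shock and chaperone genes had 14 of 15 members below 0 and a median of -0.54, with 8 lower and apart (16.4% of all genes) and 7 within 2-fold (83%). Hsph1, a nucleotide exchange factor for other chaperones, stood at 5.41 and 5.30 in rivaroxaban hearts and at 5.90, 6.33 and 6.55 in sham hearts (-0.91 ± 0.20, adjusted p = 0.475, or 0.0355 with group weights and 0.0434 with library weights). Dnaja1 (-0.63 ± 0.28) and Hsp90aa1 (-0.63 ± 0.30) also had their groups apart. Hspa1b, which shares most of its sequence with Hspa1a and is uncertain for that reason, stood at -1.32 ± 0.67.

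Cardiac stress and fetal genes had all 8 tested members below 0, a median of -0.57, 4 lower and apart (16.4% of all genes), and 2 within 2-fold (83%). The median was -0.38 without Riva-313 and -0.40 without Sham_006. Relative to the sham mean of each gene, the list stood at -0.77 in Riva-313 and -0.38 in Riva-319, against -0.31, 0.36 and 0.02 in the sham libraries. Rcan1, a feedback inhibitor of calcineurin, stood at 6.19 and 6.53 in rivaroxaban hearts and at 6.88, 7.59 and 7.34 in sham hearts (-0.91 ± 0.28, adjusted p = 0.675). Nppb, the B-type natriuretic peptide, stood at 6.17 and 5.63 in rivaroxaban hearts and at 6.58, 8.34 and 7.98 in sham hearts (-1.74 ± 0.97), so that the sham libraries alone spanned more than a log2 unit. Nppa overlapped between the groups (-0.62 ± 0.34). Myh7, the slow myosin heavy chain that rises in stressed mouse hearts, stood at 11.51 and 10.97 in rivaroxaban hearts and at 10.80, 11.20 and 11.89 in sham hearts (-0.06 ± 0.30), and its sign turned without Riva-319, without Sham_007 and with library weights.

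Immediate-early genes, a list described after its values were seen, had 17 of 20 members below 0 and a median of -0.35 (-0.21 without Sham_007). Of the 20, 6 were lower and apart (16.4% of all genes) and 1 higher and apart (16%). Relative to the sham mean of each gene, the list stood at -0.42 in Riva-313 and -0.29 in Riva-319. The sham libraries stood at 0.06, -0.33 and 0.19, so Sham_006 lay below Riva-319. Egr2, a transcription factor of the early growth response, stood at -0.83 and 0.21 in rivaroxaban hearts and at 1.40, 1.14 and 1.27 in sham hearts (-1.58 ± 0.37, adjusted p = 0.475, or 0.0477 with group weights). Atf3 stood at 1.92 and 2.38 with rivaroxaban and at 3.34, 2.84 and 4.38 in sham (-1.36 ± 0.60). Fos overlapped, at 2.24 and 2.74 with rivaroxaban and at 3.18, 2.22 and 4.31 in sham (-0.75 ± 0.48), and Egr1, at -0.18 ± 0.35, lay near 0.

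Matrix genes had 19 of 20 tested members below 0 and a median of -0.30, which was -0.11 without Riva-313 and -0.47 without Riva-319. Of these, 5 were lower and apart, a share not far above the 16.4% of all genes. Relative to the sham mean of each gene, the list stood at -0.47 in Riva-313 and -0.11 in Riva-319. The sham libraries stood at 0.14, 0.05 and -0.18, so Sham_007 lay below Riva-319. The fibrillar collagens Col1a1 (-0.18 ± 0.39) and Col3a1 (-0.17 ± 0.51) overlapped between the groups. Serpinh1, the collagen chaperone, named after its values were seen, stood at 7.71 and 7.80 in rivaroxaban hearts and at 8.48, 8.73 and 8.79 in sham hearts (-0.91 ± 0.21, adjusted p = 0.475, or 0.0234 with group weights and 0.0237 with library weights). P4ha1, a prolyl hydroxylase of collagen and a hypoxia target, stood at 5.56 and 5.49 in rivaroxaban hearts and at 6.09, 6.42 and 6.33 in sham hearts (-0.75 ± 0.19). Loxl2, a collagen cross-linking enzyme, was at -0.72 ± 0.24. Col11a2, a minor fibrillar collagen, stood at 1.75 and 2.25 in rivaroxaban hearts and at 3.73, 3.36 and 3.56 in sham hearts (-1.55 ± 0.25, adjusted p = 0.243, or 0.0115 with group weights).

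The gene with the smallest p was Rtn4r, the receptor of the axon growth inhibitor Nogo (chromosome 16, 18127642 to 18152408). It stood at 1.39 and 0.53 in rivaroxaban hearts and at 3.79, 3.58 and 3.08 in sham hearts, far apart in every pair (-2.52 ± 0.34, 95% interval -3.27 to -1.77, adjusted p = 0.237, or 0.0115 with group weights and 0.00594 with library weights). In untreated hearts it stood at 0.47 and 0.38. The other lower genes of smallest p were Pmepa1, which dampens transforming growth factor beta signalling (-0.77 ± 0.12), the transcriptional co-activator gene Cited4 (-1.14 ± 0.20), Pkdcc (-0.86 ± 0.17), the clock repressor gene Bhlhe40 (-0.80 ± 0.17) and Foxo6os (-1.59 ± 0.28). Foxo6os is an antisense gene, and reads of its partner cannot be set apart because the strand setting of the counts is not given. These genes were taken for their small p in this contrast, so that their separation is a description.

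Fatty acid genes leaned up. Of 27 tested genes of uptake and oxidation, 26 lay above 0, with a median of 0.21, 13 higher and apart (16% of all genes were), 7 higher at an unadjusted p under 0.05 (2.81% of all genes) and 20 within 2-fold. Against the same sham libraries the list median was larger in aPC hearts, at 0.34. It was 0.06 in untreated and -0.49 in dabigatran hearts. Cpt1a, which carries long-chain fatty acids towards mitochondrial oxidation, stood at 6.79 and 6.80 in rivaroxaban hearts and at 6.33, 5.69 and 5.94 in sham hearts (0.81 ± 0.19, adjusted p = 0.475, or 0.0341 with group weights and 0.0458 with library weights). Cpt2 (0.34 ± 0.12), Decr1 (0.37 ± 0.12) and the trifunctional protein subunit Hadha (0.29 ± 0.12), all of mitochondrial oxidation, had smaller differences with groups apart. Acot1 (1.28 ± 0.32) and Acot2 (0.92 ± 0.22), acyl-CoA thioesterases, also had groups apart, but they are near-identical copies whose reads may be split.

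Slc27a1, a fatty acid transport protein outside the fixed list (chromosome 8, 71568882 to 71587302), had the smallest p of the higher genes. It stood at 8.99 and 8.95 in rivaroxaban hearts and at 8.20, 7.85 and 8.30 in sham hearts (0.85 ± 0.14, adjusted p = 0.243, or 0.0128 with group weights and 0.00867 with library weights). Ech1, of the oxidation of unsaturated fatty acids, stood at 10.50 and 10.63 in rivaroxaban hearts and at 9.97, 9.93 and 9.96 in sham hearts (0.61 ± 0.15). Mlycd, which degrades the malonyl-CoA that holds back Cpt1 enzymes, stood at 7.56 and 7.68 in rivaroxaban hearts and at 7.16, 6.75 and 7.01 in sham hearts (0.64 ± 0.16). Ech1 and Mlycd were named after their values were seen, and both were called with group weights (0.0352 and 0.0382) and library weights.

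Not every member was tight. Pdk4, which holds glucose carbon out of oxidation, spanned 9.50 and 10.18 in rivaroxaban hearts and 9.96, 7.31 and 8.74 in sham hearts (1.17 ± 0.96), and Ucp3 overlapped likewise (0.95 ± 0.57). In the fatty acid list as a whole, Sham_003 lay nearest to the rivaroxaban libraries, at a median of 0.11 relative to the sham mean of each gene, against 0.24 and 0.27 in Riva-313 and Riva-319.

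Glycolysis genes, a list described after its values were seen, had the opposite sign, with all 18 members below 0, a median of -0.28, 12 lower and apart (16.4% of all genes), and all 18 within 2-fold (83%). Ldha, lactate dehydrogenase A, stood at 9.05 and 8.99 in rivaroxaban hearts and at 9.34, 9.52 and 9.26 in sham hearts (-0.35 ± 0.14). Eno3, the muscle enolase, stood at 9.63 and 9.75 in rivaroxaban hearts and at 10.00, 10.26 and 10.02 in sham hearts (-0.40 ± 0.17). These were small differences, and none passed with either kind of weight. Outside that list, among the genes of smallest p, Pfkfb1, a bifunctional regulator of glycolysis (1.43 ± 0.28), and Fbp2, the muscle fructose bisphosphatase of glucose synthesis (0.90 ± 0.20), lay above sham, with adjusted p = 0.398 and 0.475, or 0.0234 and 0.0360 with group weights.

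Hypoxia targets, also described after their values were seen, leaned down but had members apart on both sides. Of 13 tested members 8 lay below 0, with a median of -0.35 (-0.40 to -0.25 over single libraries left out). The libraries of 7 were lower and apart (16.4% of all genes) and those of 3 higher and apart (16%). At an unadjusted p under 0.05 in the limma fit stood 5 lower and 2 higher members (2.81% of all genes each). Egln3, a prolyl hydroxylase that senses oxygen (-1.07 ± 0.30), and the vascular growth factor Vegfa (-0.47 ± 0.19) lay lower, while Bnip3 (0.49 ± 0.18) and Pfkfb3 (0.88 ± 0.32) lay higher, and none of these 4 passed in the unweighted fit. All 18 citric acid cycle genes and all 21 respiratory chain genes were shown within 2-fold (83% of all genes), as were all 16 ribosomal protein and all 16 proteasome genes. Within that margin, 17 of the 21 respiratory chain genes lay below 0 and 9 were lower and apart, and of the citric acid cycle genes 6 were lower and apart and 2 higher and apart.

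Drug metabolism genes had all 18 tested members above 0 (48.9% of all genes were), a median of 0.43 and 12 higher and apart (16%). Gstm1, a glutathione transferase, stood at 8.19 and 8.19 in rivaroxaban hearts and at 7.72, 7.82 and 7.65 in sham hearts (0.45 ± 0.11, adjusted p = 0.475, or 0.0417 with group weights and 0.0270 with library weights), and near copies among its family make it uncertain. Abcb1a, which encodes the efflux transporter P-glycoprotein, for which rivaroxaban is a known substrate, stood at 6.32 and 6.07 in rivaroxaban hearts and at 5.75, 5.47 and 5.75 in sham hearts (0.54 ± 0.20, adjusted p = 0.818). The flavin monooxygenase Fmo2 (0.90 ± 0.29) and the epoxide hydrolase Ephx1 (0.71 ± 0.28) lay on the same side with groups apart. Summed levels of the list were 944 to 986 CPM with rivaroxaban and 676 to 765 CPM in sham. The lean was not particular to rivaroxaban. Against the same sham libraries the list median was 0.44 in untreated, 0.30 in aPC and -0.55 in dabigatran hearts. In rivaroxaban against untreated hearts it was 0.08.

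Glucocorticoid targets had 14 of 15 members above 0 and a median of 0.53, with 6 higher and apart (16% of all genes) and 4 within 2-fold (83%). The median was 0.27 without Sham_006, below that of the drug metabolism list without the same library (0.43). Klf15, a transcription factor that glucocorticoids induce and that promotes lipid and amino acid use in heart and muscle (chromosome 6, 90462576 to 90475238), was the tightest of them. It stood at 6.81 and 6.84 in rivaroxaban hearts and at 6.07, 6.09 and 6.10 in sham hearts (0.74 ± 0.15, adjusted p = 0.398, or 0.0128 with group weights and 0.00734 with library weights). Zbtb16 stood at 7.83 and 8.19 in rivaroxaban hearts and at 7.71, 6.17 and 7.41 in sham hearts (0.91 ± 0.39), and Per1, also a clock gene, at 7.34 and 7.66 against 6.96, 6.04 and 6.80 (0.90 ± 0.43). Sham_006 was the lowest sham library in both genes, and its list median was -0.42 relative to the sham mean. In untreated against sham hearts, which share those sham libraries, the list median was 1.80.

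Among the remaining higher genes of smallest p were Penk, which encodes the enkephalin precursor, and Srebf1, a master regulator of lipid synthesis. Penk stood at 2.92 and 2.81 in rivaroxaban hearts and at 1.28, 1.08 and 1.40 in sham hearts (1.61 ± 0.30, adjusted p = 0.370, or 0.0115 with group weights). Srebf1 stood at 6.31 and 6.68 in rivaroxaban hearts and at 5.93, 5.85 and 5.85 in sham hearts (0.62 ± 0.13, adjusted p = 0.403, or 0.0352 with group weights). Ano10 (1.00 ± 0.18), Myrip (0.94 ± 0.19) and the lectin gene Lgals4 (1.41 ± 0.31) were also among them.

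**Figure D4:**
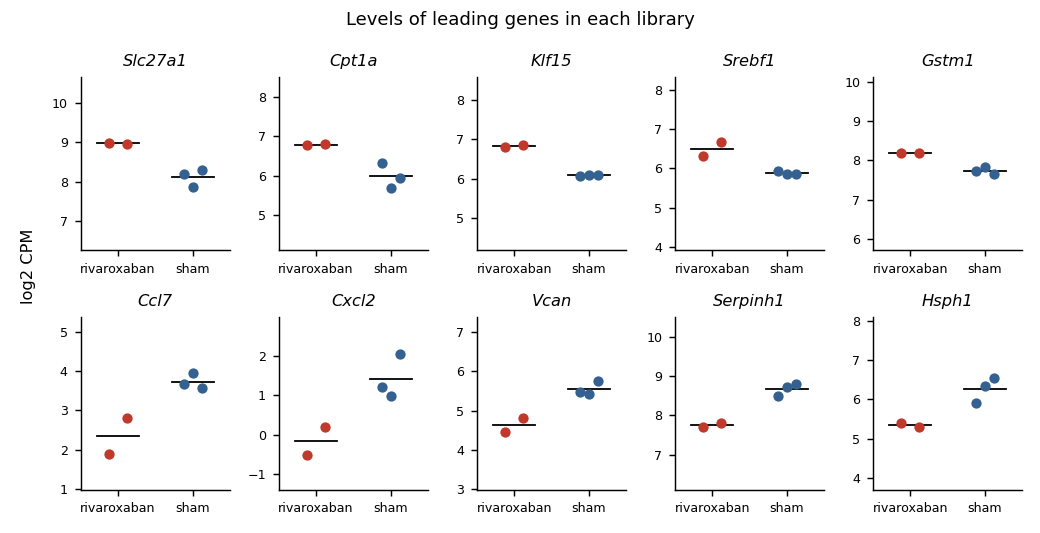
Log2 CPM of 10 genes in each library, rivaroxaban on the left and sham on the right of each panel, with a line at the group mean and the same span of log2 units on every axis. The upper row lies higher and the lower row lower with rivaroxaban, with no overlap in any panel, and the adjusted p of each is over 0.05 in the unweighted fit (0.243 the smallest).

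**Figure D5:**
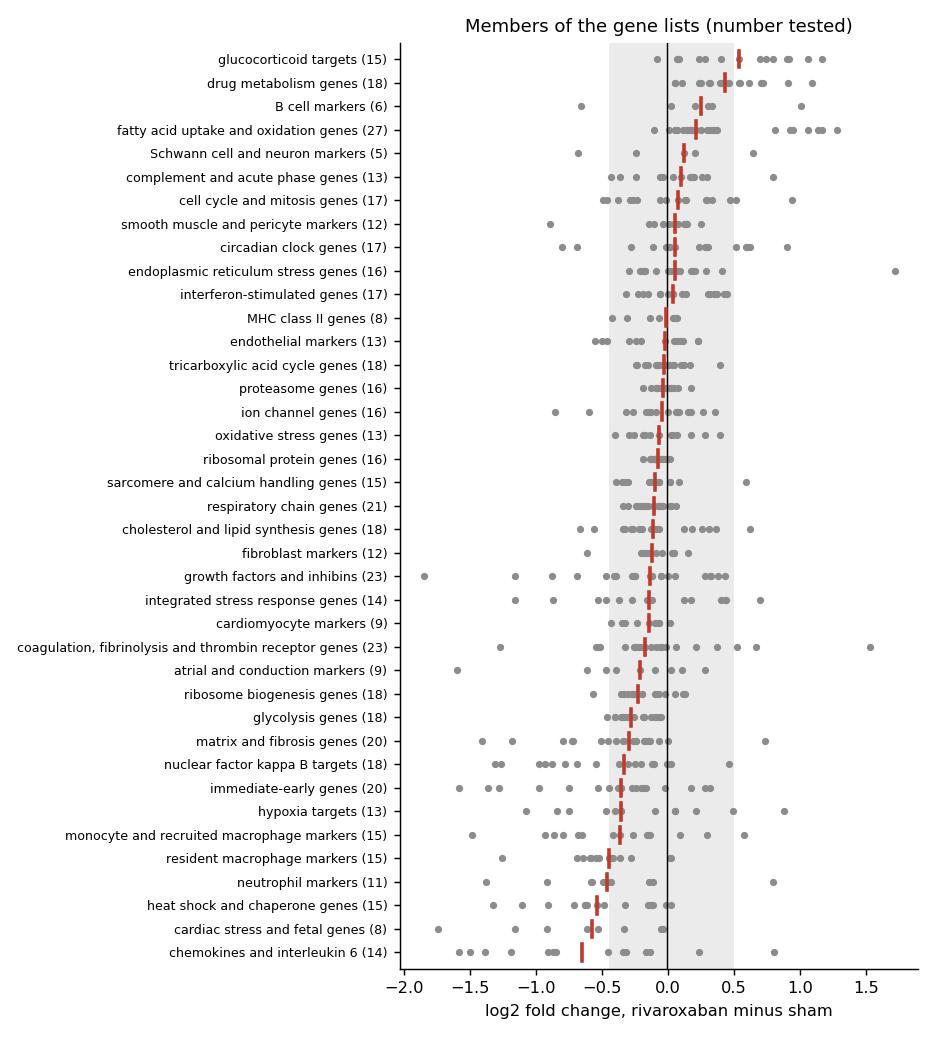
Log2 fold change of each tested member of the lists with at least 5 such members, rivaroxaban minus sham, with a bar at the list median, a line at the median of all genes and grey between -0.44 and 0.49, where 90% of all genes lie. Medians run from -0.65 for chemokines and interleukin 6 to 0.53 for glucocorticoid targets.

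Some injury genes were also compared directly between rivaroxaban and untreated hearts, where the fit called 1147 genes (8.47%), 603 of them lower with rivaroxaban (4.45%), and 43 to 5029 when 1 library was left out. Inhbb, a subunit of activin and inhibin, stood at 2.00 and 2.11 in rivaroxaban hearts, at 7.68 and 6.14 in untreated hearts and at 2.39, 2.22 and 2.30 in sham hearts. It was lower with rivaroxaban than in untreated hearts by a log2 fold change of -4.85 (adjusted p = 0.000611), while rivaroxaban against sham was -0.25 ± 0.37. Grk5, which phosphorylates and so desensitizes G protein-coupled receptors, stood at 6.08 and 5.87 in rivaroxaban hearts, at 9.43 and 8.57 in untreated hearts and at 5.63, 5.52 and 5.80 in sham hearts (rivaroxaban against untreated -3.02, adjusted p = 0.000998). Adamts4, a protease that cleaves versican and aggrecan, stood at 0.18 and 1.34 in rivaroxaban hearts, at 5.57 and 5.06 in untreated hearts and at 2.08, 2.18 and 2.29 in sham hearts (rivaroxaban against untreated -4.56, adjusted p = 0.000570, and against sham -1.42 ± 0.33). Inhbb, Grk5 and Adamts4 passed against untreated under every alternative that gave a value.

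Cxcl2, at 3.94 and 3.95 in untreated hearts, was lower with rivaroxaban by -4.09 (adjusted p = 0.00289), and Sele, at 3.31 and 2.89, by -2.61 (adjusted p = 0.00302). Both calls were lost with either kind of weight, at adjusted p = 0.0676 and 0.0623 for Cxcl2 and 0.0601 and 0.0602 for Sele, with group and library weights in that order. Slc27a1 is not one of the injury genes and was named for its small p against sham. Its p against untreated hearts reuses the rivaroxaban values it was chosen for, and so gives no separate support. It stood in untreated hearts at 8.07 and 8.12, as low as in sham, and rivaroxaban was higher by 0.88 (adjusted p = 0.0114 in the limma fit). That call was lost without Riva-313 (adjusted p = 0.106), without Riva-319 (0.0746) and with group or library weights (0.137 and 0.133).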

How the data were processed

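Messenger RNA of mouse heart was measured by strand-marking polyA sequencing from 500 ng of total RNA, per the labels' protocols. The authors deposited 1 table of log2 CPM values for 11 libraries, and its name gives TMM (trimmed mean of M values) as the normalization. The submitters' processing notes list bcl2fastq, FastQC, Trim Galore, STAR and edgeR with build mm10 and no versions; which counter was used, with what strand setting and gene filter, is not stated in these sources. Of the 16658 identifiers, 16654 matched GENCODE release M21, which supplied positions.

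After the lowest value (-3.93) was taken off on the CPM scale, 100% of values were whole reads to within 0.05 read, so depth is known. Genes with at least 0 log2 CPM in at least 3 libraries were tested with limma-trend (limma 3.58.1, R 4.3.3) in 1 fit of the 5 group means, which share their spread over 6 residual degrees of freedom. Calls required an adjusted p under 0.05 (Benjamini-Hochberg, over every gene in the fit). Equivalence used a pair of one-sided tests against a log2 change of 1 in either direction. Libraries are called apart where both rivaroxaban values lie on the same side of all sham values. No replicate number is shared between groups, so no pairing was fitted. The fit was checked on simulated data.

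Lists are described by counts and medians, with no set test. As no gene was called, named genes are the 10 of smallest p in each direction with a mean of at least 1, up to 4 members of smallest p from each described list, and a fixed set of injury and coagulation genes. Any further gene was added after values were seen. So were the matrix, immediate-early, hypoxia, glycolysis, citric acid cycle, respiratory chain, ribosomal protein and proteasome lists. The integrated stress response, endoplasmic reticulum stress and oxidative stress lists were added likewise. Members and lists were chosen with earlier results of these data known. Alternatives changed the filter, the scaling, the weights, the prior and the libraries. A few genes that met these rules are not reported here. Promoter sequences are from RefSeq.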

Additional observations from a re-analysis of the deposited data

How the results depend on the processing

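Rivaroxaban against sham gave 0 called genes without any single library (0 to 0), and under every other alternative that could change the count except the weights, which gave 92 (by group) and 198 (by library). The weighted counts differ from the unweighted one by the weight of the libraries, and which fit describes the spread better was not tested. The unweighted fit shares 1 spread over groups that differed in it. The median over genes of the SD within a group was 0.102 for rivaroxaban, 0.153 for sham and 0.122 for aPC. It was 0.190 for dabigatran and 0.284 for untreated hearts. Genes within 2-fold ranged from 9055 to 12068 over single libraries left out and numbered 5206 at a margin of 1.5-fold. The ratio of distances was 1.46 as 1 minus the Spearman correlation and 1.10 to 1.26 (1.265) over single libraries left out.

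With group and library weights, untreated against sham had fewer called genes (17 and 25) than rivaroxaban against sham (92 and 198). For the other contrasts, called genes numbered as follows. Untreated against sham had 1435, with 2978 at an adjusted p under 0.1, 17 and 25 with group and library weights, and 261 to 5197 over single libraries left out. Rivaroxaban against untreated had 1147, with 2430, 37 and 37, and 43 to 5029. Dabigatran against sham had 2508, with 4252 when untreated libraries left the fit and 374 to 4260 over single libraries left out, and rivaroxaban against dabigatran had 3161, with 4842 and 919 to 4840. For aPC against sham there were 159, with 403 at 0.1, 778 with no untreated library, 1363 and 1784 with group and library weights, 80 with voom on recovered reads and 1 to 779 over single libraries left out. For rivaroxaban against aPC there were 208, with 610, 1197, 3204, 3219 and 117 in the same order, and 1 to 1202. The cause of these moves was not tested.

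Of 140 named genes, 129 kept their sign in rivaroxaban against sham under up to 21 alternatives. The remaining 11 turned when a single library was left out, with log2 fold changes of -0.42 to 0.047 (Col3a1), -1.16 to 0.24 (Csf3r), -0.55 to 0.25 (Egr1), -1.01 to 0.63 (Hmox1), -0.073 to 0.67 (Ighm), -3.24 to 0.48 (Mmp8), -0.18 to 0.41 (Mt2), -0.33 to 0.24 (Myh7), -1.18 to 0.024 (S100a8), -1.66 to 0.30 (Spp1) and -0.082 to 0.11 (Tnnt2). With library weights Mt2 stood at -0.16 and Myh7 at 0.16. Of 39 list medians, 24 kept their sign. Neutrophil and monocyte medians stood at 0.24 each without Riva-313. Voom and the fit with no untreated library were added after seeing the data. The planned edgeR and DESeq2 tests were not run, since the deposited values are log2 CPM. No paired analysis was possible because no replicate number is shared between groups.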

Other observations

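A few lists not yet described had small or uneven differences between rivaroxaban and sham hearts. B cell markers had 5 of 6 members above 0 (median 0.25), but the list median was negative without some single libraries (-0.09 the lowest), and Blk, a B cell kinase, lay on the other side, at 3.72 and 3.40 in rivaroxaban hearts and at 4.25, 4.55 and 3.84 in sham hearts. Circadian clock genes had 11 of 17 members above 0 (48.9% of all genes were), 6 of them apart from sham (16%), with a median of 0.05 that was 0.03 to 0.17 over single libraries left out. Complement and acute phase genes, Schwann cell markers and interferon-stimulated genes had medians of 0.10, 0.12 and 0.04, and 0 of their members were called or stood at an unadjusted p under 0.05 by limma.

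Lgals4 and Ech1, which both lay higher with rivaroxaban, are neighbours on the plus strand of chromosome 7, where Ech1 ends at 28832247 and Lgals4 begins at 28833854 (mm10). Inhba, another activin subunit, stood at -1.38 and -0.07 in rivaroxaban hearts and at 0.65, 1.20 and 1.53 in sham hearts (-1.85 ± 0.41, adjusted p = 0.475, or 0.0477 with group weights). Cited2 stood at 6.02 and 6.16 in rivaroxaban hearts and at 5.32, 5.43 and 4.97 in sham hearts (0.85 ± 0.20), the opposite side from its relative Cited4. Inhba and Cited2 were named after their values were seen.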
